A study of Mus musculus with 6 samples.

Results

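Collagens and laminins are the chains of the extracellular matrix that surrounds islets and runs along their capillaries. The genes described here were chosen by symbol, as names of a collagen alpha chain or of a laminin alpha, beta or gamma chain in the deposited table. They are 53 genes, 43 collagens and 10 laminins, among 21813 gene symbols. For a gene listed with several transcripts, the transcript with the highest mean over the 6 libraries stands for the gene.

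The islets came from adult males of 3 months, 3 of them Ucn3 null and 3 wild type, and the wild-type animals were littermates of the null ones. Ucn3 encodes urocortin 3, a peptide of mature beta cells. The labels give neither the strain nor the null allele, and no further allele or treatment for either group. The islets were freed from the pancreas by collagenase, and each library holds the RNA of 1 mouse. The labels call the cell type mixed, while the RNA protocol mentions cell sorting, so it is not settled whether a sort took place.

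Laminins are trimers of 1 alpha, 1 beta and 1 gamma chain that assemble into the sheet of a basement membrane. Type IV collagen forms the second network of that sheet, and nidogens and perlecan link the networks. Fibrillar and type VI collagens lie in the interstitial matrix made by fibroblasts and stellate cells. In mouse islets, the vascular basement membrane made by endothelial cells is the main matrix that beta cells touch, while ducts rest on an epithelial basement membrane.

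Values are RPKM, reads per kilobase of transcript scaled to the depth of the library, so levels can be set side by side per length. The spacing of low values put the depth of the libraries between 42400000 and 51740000 reads. Ucn3 itself stood at 136, 157 and 155 RPKM in wild type mice 1 to 3 and at 1.61, 1.63 and 1.80 RPKM in null mice 1 to 3, so all 6 libraries matched their labels. The 12 islet endocrine genes, insulin and glucagon among them, summed to between 241020 and 301923 RPKM per library. Most of this was the insulin gene Ins2, at 184445 to 232411 RPKM, so the sum shows little of the others. Of the 12, 4 were positive, 8 negative and 0 called. Sst, the somatostatin gene, was lower in null islets without overlap, as were 13.2% of all genes tested. It was at 1676, 2117 and 2320 RPKM against 643, 816 and 1035 RPKM (limma adjusted p = 0.34). Acinar markers, from the exocrine pancreas, differed widely. Their 20 genes summed to 5486, 478 and 2147 RPKM in the wild-type libraries and to 19530, 11714 and 4133 RPKM in the null libraries. Of the tested markers, 19 of 19 were positive and 0 called. At an unadjusted p under 0.05, limma counted 18 of these 19 as higher in null islets, against 1.46% of all genes tested. Ductal markers summed to 371, 374 and 274 RPKM in wild type and to 275, 221 and 233 RPKM in null libraries. Macrophage markers (8 of 10 tested, 7 negative) summed to between 46.8 and 85.2 RPKM, Schwann cell markers to between 6.10 and 7.08 RPKM and mesothelial markers to between 6.67 and 16.9 RPKM, with 0 called in these lists. No listed marker was at 0 in any library. In bulk RNA, fewer cells of a type and less RNA per cell cannot be told apart.

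None of the collagen and laminin genes described here passed the test between genotypes. Of the 53 genes, 17 averaged at least 1 RPKM over the 6 libraries and were tested with limma on log2(RPKM + 1), alongside 12635 other genes. The count past an adjusted p of 0.05 was 0 of these 17, against 0.0158% of all 12652 genes tested. At an unadjusted p under 0.05 limma counted 1 of the 17, where it counted 9.36% of all genes tested. This was Col6a6, higher in null islets as were 1.46% of all genes, while 7.9% of all genes were lower. The values of null and wild-type mice did not overlap for 1 of the 17, Col20a1, where 15.2% of all genes tested showed no overlap. All 17 differences lay between -0.26 and 0.29 on the log2(RPKM + 1) scale. Their median was 0.03, against -0.03 for all genes tested. The scale understates changes of low genes: the ratio of the null to the wild-type mean was 0.738 for Lama5 and 1.33 for Col27a1.

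**Figure D1:**
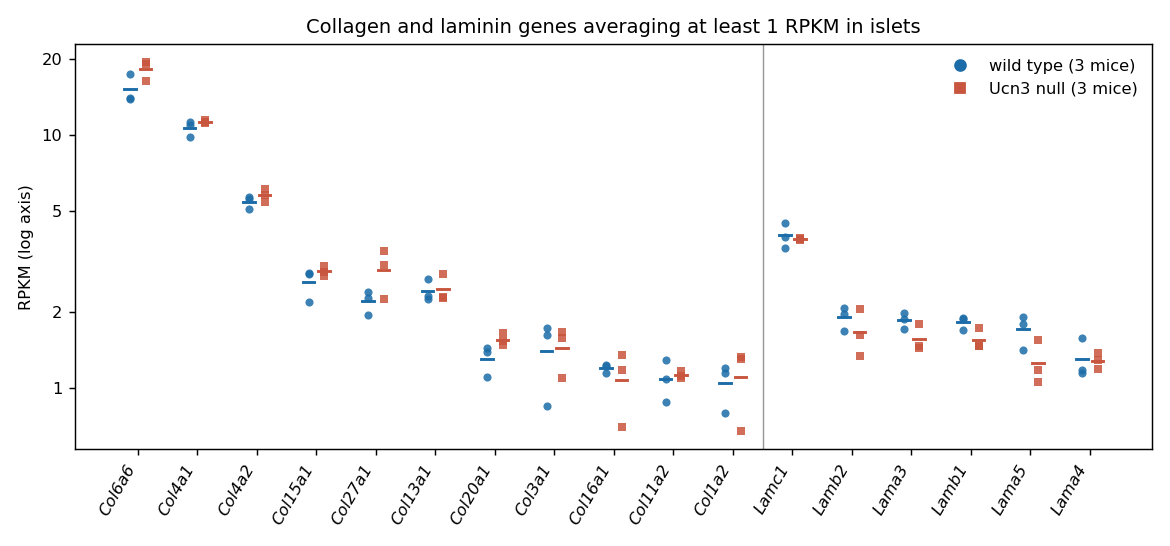
RPKM of the 17 collagen and laminin genes averaging at least 1 RPKM, on a log axis, with circles for 3 wild-type mice, squares for 3 Ucn3 null mice and bars for group means. Col6a6 (13.9 to 19.4 RPKM) and Col4a1 (9.84 to 11.5 RPKM) stand above all others, and the groups overlap for all genes shown but Col20a1.

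The order of levels was led by 3 collagens. Col6a6, a chain of type VI collagen, held 17.5, 14.0 and 13.9 RPKM in wild type and 19.4, 19.0 and 16.4 RPKM in null islets. Col4a1 followed with 9.84 to 11.5 RPKM over the 6 libraries and Col4a2 with 5.08 to 6.12 RPKM. These ranges did not overlap each other. Lamc1, the gamma chain of most basement membrane laminins, came next at 3.58 to 4.501 RPKM, apart from all below it. Col15a1, Col27a1 and Col13a1 overlapped one another, at 2.18 to 3.03, 1.94 to 3.49 and 2.25 to 2.81 RPKM. Col13a1 lay apart from Lamb2, the next in the order, at 1.34 to 2.07 RPKM. From Lamb2 down to Col1a2, each tested gene overlapped its neighbour.

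The remaining 36 genes averaged under 1 RPKM and were not tested. Their means ran from 0.854 RPKM for Col6a3 down to 0.0128 RPKM for Col17a1, a transmembrane collagen of hemidesmosomes with about 1 to 7 reads per library. None of the 53 genes was listed at 0 in any library. Groups did not overlap for 6 of these 36 genes, 2 higher and 4 lower in null islets. Over all genes under 1 RPKM the share without overlap was 9.68%, with 3.39% higher and 6.29% lower.

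Type IV collagen, the network former of basement membranes, was represented almost entirely by 2 of its 6 chains. Col4a1 stood at 11.2, 9.84 and 10.96 RPKM in wild type and at 11.3, 11.1 and 11.5 RPKM in null islets. For Col4a2 the values were 5.71, 5.08 and 5.58 RPKM in wild type and 5.43, 5.80 and 6.12 RPKM in null islets. In both genes wild type mouse 2 was the lowest of the 6, and the groups overlapped. The log2 difference of Col4a1 was 0.08, with a 95% interval from -0.08 to 0.24 (limma adjusted p = 0.78), and that of Col4a2 was 0.07, with an interval from -0.10 to 0.24 (limma adjusted p = 0.81).

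The 2 genes lie head to head on mouse chromosome 8, and their protein chains combine in 1 trimer. In the RefSeq promoter table of build GRCm38.p6 the annotated starts are so close that the first exons overlap by 22 bases on opposite strands. The windows of 250 bases before to 50 after each start share 78 bases. The 22 bases hold 1 GC box, the letters GGGCGG searched on both strands. A GC box occurred in 35.7% of all 32851 windows of 300 bases and in 59.1% of the 44 windows that match 40 of the 53 genes. A match describes the letters only.

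The ratio of Col4a1 to Col4a2 within a library does not depend on how the library was scaled. Wild-type libraries had ratios of 1.96, 1.94 and 1.96, and null libraries had 2.08, 1.92 and 1.88. Over all 6 libraries its coefficient of variation was 3.40%, while Col4a1 alone varied by 5.38% and Col4a2 alone by 6.25%. The mean ratio was 1.96 ± 0.02 for wild-type mice and 1.96 ± 0.10 for null mice (SD, 3 mice each; exact two-sided permutation p = 1, where 0.1 is the smallest p that 3 against 3 mice allow).

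**Figure D2:**
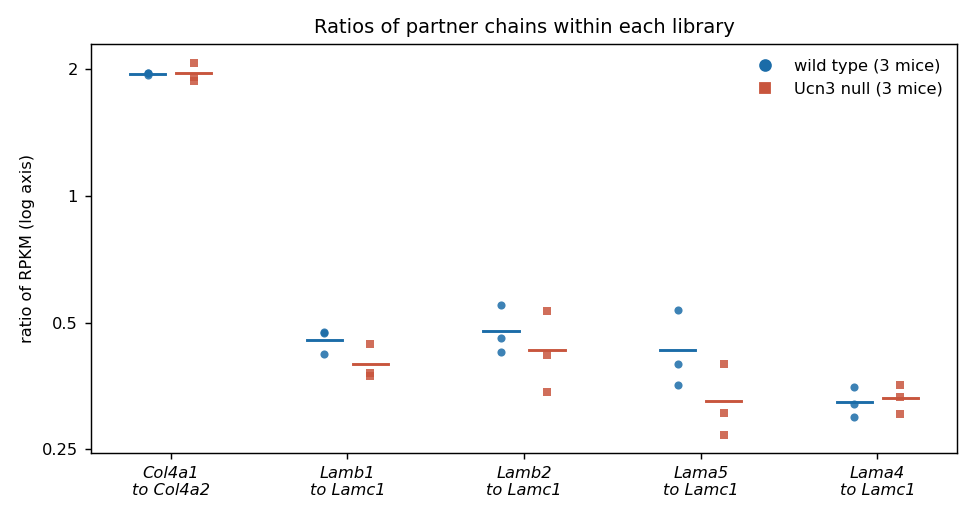
Ratio of RPKM of 2 partner chains in each library, on a log axis, with circles for wild-type and squares for Ucn3 null mice and bars for group means. Col4a1 to Col4a2 keeps within a narrow band (1.88 to 2.08), while Lama5 to Lamc1 runs from 0.271 to 0.535.

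The other 4 type IV chains, which form specialised basement membranes such as that of the kidney glomerulus, averaged 0.117 to 0.395 RPKM. Col4a4 did not overlap between genotypes, with 0.304, 0.237 and 0.225 RPKM in wild type and 0.210, 0.213 and 0.182 RPKM in null islets, which is about 85 to 130 reads per library. Its head-to-head neighbour Col4a3 did overlap, at 0.379, 0.278 and 0.266 RPKM against 0.302, 0.242 and 0.215 RPKM. Col4a5 was at 0.633, 0.465 and 0.341 RPKM in wild type and 0.517, 0.231 and 0.181 RPKM in null islets. Null mouse 1 thus lay within the wild-type range for Col4a5 and Col4a3.

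All 6 tested laminin chains had negative differences, with a median of -0.14, and none passed the test. Negative differences made up 61.7% of all genes tested. With median-ratio scaling 2 of the 6, Lama4 and Lamc1, turned slightly positive (0.02 and 0.004), and with upper-quartile scaling 1 did, Lama4 (0.01). Without wild type replicate 1, 2 of the 6 were positive, and without null replicate 2, 1 was. Collagens leaned the other way, with 10 of 11 tested genes positive and a median of 0.07. This count was 7 without wild type replicate 2, without null replicate 3, or when the mean log2 level of acinar markers was a covariate.

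**Figure D3:**
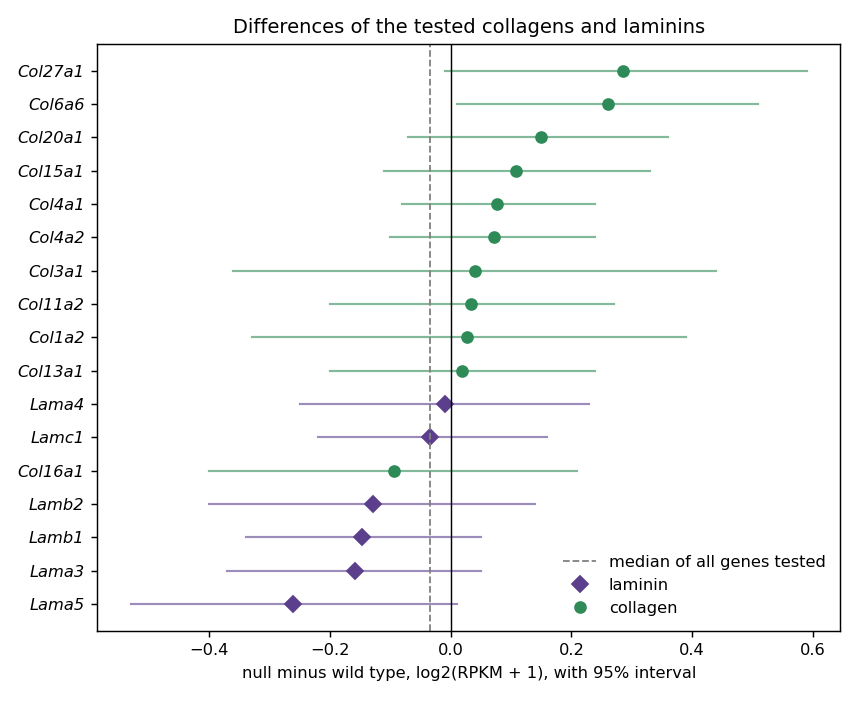
Difference of Ucn3 null minus wild type in log2(RPKM + 1) for each tested collagen (circles) and laminin (diamonds), with 95% limma intervals, a solid line at 0 and a dashed line at the median of all genes tested. The laminins lie from -0.26 to -0.01 and the collagens from -0.09 to 0.29, and all intervals but that of Col6a6 reach across 0.

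Among the alpha chains, which carry the binding sites for cell receptors, 3 of 5 were tested. Lama5, the alpha chain of most adult epithelial and vascular basement membranes, was at 1.80, 1.92 and 1.41 RPKM in wild type and at 1.54, 1.06 and 1.18 RPKM in null islets. Null mouse 1 lay above wild type mouse 3, so the groups overlapped. The log2 difference was -0.26 (SE 0.12, limma adjusted p = 0.54), the lowest among the 17 tested genes. Lama3, the alpha chain of the laminin that anchors epithelia through hemidesmosomes, was at 1.99, 1.87 and 1.72 RPKM in wild type and 1.79, 1.46 and 1.44 RPKM in null islets (log2 difference -0.16, SE 0.09, limma adjusted p = 0.63). Again null mouse 1 was the only null library within the wild-type range. Lama4, an alpha chain of blood vessels, was at 1.58, 1.15 and 1.18 RPKM against 1.37, 1.19 and 1.29 RPKM, and here the null values lay inside the wild-type range. Its log2 difference was -0.01, with a 95% interval from -0.25 to 0.23 (limma adjusted p = 0.99). Lama2, the alpha chain of muscle and nerve, averaged 0.322 RPKM and Lama1, an embryonic chain, 0.0209 RPKM.

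Of the beta chains, Lamb1 stood at 1.89, 1.69 and 1.88 RPKM in wild type and at 1.72, 1.46 and 1.47 RPKM in null islets. Lamb2, which takes the place of Lamb1 in many mature basement membranes, was at 2.07, 1.97 and 1.69 RPKM against 2.06, 1.34 and 1.62 RPKM. The groups overlapped in both, with log2 differences of -0.15 (SE 0.08, limma adjusted p = 0.63) and -0.13 (SE 0.12, limma adjusted p = 0.78). For Lamb2 the difference was -0.04 without null replicate 2 and -0.23 without null replicate 1. Lamb3, the beta partner of Lama3, averaged 0.702 RPKM and was not tested. Its libraries held 1.01, 1.06 and 0.708 RPKM in wild type and 0.775, 0.411 and 0.244 RPKM in null islets, about 46 to 206 reads. The mean of wild type over the mean of null islets was 1.95, with null mouse 1 above wild type mouse 3.

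Lamc1 was at 4.501, 3.58 and 3.96 RPKM in wild type and at 3.87, 3.91 and 3.87 RPKM in null islets. The null mice lay within the wild-type range, and the log2 difference was -0.03, with a 95% interval from -0.22 to 0.16 (limma adjusted p = 0.93). Lamc3 averaged 0.141 RPKM.

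Ratios of laminin chains within a library varied more than the type IV ratio. Lama5 to Lamc1 held at 0.400, 0.535 and 0.356 for the wild-type mice, against 0.399, 0.271 and 0.305 for the null mice. Its coefficient of variation was 24.5%, above that of either chain (22.7% and 7.63%). Lama4 to Lamc1, at 0.351, 0.321 and 0.299 against 0.355, 0.304 and 0.333, varied by 7.22%. For Lama5 to Lamc1 the log2 difference between genotypes was -0.40, taken on the ratio without the added 1 RPKM (exact two-sided permutation p = 0.2). Over the 5 ratios computed p ran from 0.2 to 1 and adjusted p from 0.5 to 1 (exact permutation tests), and with 3 against 3 mice no ratio could reach a p under 0.1, so these tests cannot tell whether the ratios differ. By Pearson correlation, Lama3 and Lama5 were the laminin pair most alike across the 6 libraries. Their Pearson correlation was 0.943 (exact permutation p = 0.0139) and Spearman's rho was 0.886 (exact permutation p = 0.0333). Over all 136 pairs of tested genes the adjusted values were 0.416 and 0.648, so the correlation did not pass. Without the 2 mice farthest from the median of Lama3, r was 0.812. Lamb2 came close, with r of 0.895 to Lama5 and 0.882 to Lama3 (adjusted exact permutation p = 0.416 for each). The likeness was thus not particular to the alpha chains.

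The epithelial chains ran low in the same libraries as the ductal marker Krt19, though not as every ductal marker. Krt19, a keratin of ducts, was at 18.5, 22.8 and 13.3 RPKM in wild type and at 12.97, 5.30 and 3.96 RPKM in null islets. It had a log2 difference of -1.31 (SE 0.37, limma adjusted p = 0.49). Lamb3, Lama3, Lama5 and Krt19 were all highest in wild type mice 1 and 2, and Lamb3, Lama3 and Krt19 were lowest in null mouse 3. Of the 3 ductal markers with the highest means, Spp1 and Krt7 shared this order, Krt7 only between 64.3 and 77.2 RPKM. Krt8 did not, at 84.2, 71.0 and 47.3 RPKM in wild type and 56.8, 46.6 and 57.4 RPKM in null islets. Tspan8 was lowest in null mouse 1, at 12.1 RPKM. Of 11 ductal markers 10 were tested, all 10 with negative differences and 0 called, and none was at 0 in any library. Of the 10, 4 were lower without overlap, where 13.2% of all genes tested were. When the mean log2 level of acinar markers entered the fit as a covariate, Lama5 had a log2 difference of -0.27 and Lama3 one of -0.24 (limma adjusted p = 0.98 for each). This covariate was 6.92, 4.02 and 5.77 in wild type and 8.61, 7.97 and 6.65 in null libraries. It partly follows genotype, so the fit cannot cleanly separate acinar RNA from genotype. The part of ductal RNA in these laminin differences was not tested.

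**Figure D4:**
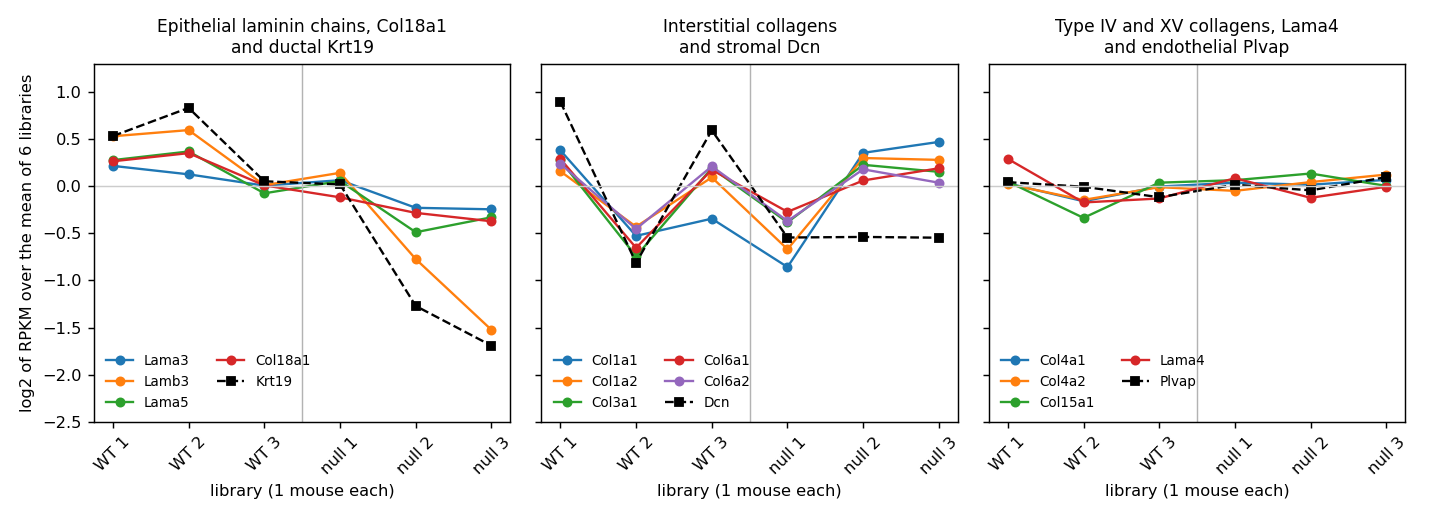
Log2 of RPKM in each library over the gene's mean of 6 libraries, for epithelial laminin chains and Col18a1 (left), interstitial collagens (middle) and type IV and XV collagens with Lama4 (right), with 1 marker gene per panel as a dashed line with squares. Lamb3 follows Krt19 downward in null mice 2 and 3, and the interstitial collagens dip in wild type mouse 2 and null mouse 1. Among the chains shown, Col4a1 and Col4a2 stay closest to their mean.

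Upstream sequence of the laminin chains with the lowest null to wild-type levels among tested and untested chains is shown for comparison. RefSeq windows of build GRCm38.p6 were used, and only bases before the annotated start and outside annotated exons are printed. Lama5 is given on the minus strand at chr2:180225860-180226109 and Lamb3 on the plus strand at chr1:193301744-193301992, with GGGCGG or its reverse complement in capitals.
Lama5: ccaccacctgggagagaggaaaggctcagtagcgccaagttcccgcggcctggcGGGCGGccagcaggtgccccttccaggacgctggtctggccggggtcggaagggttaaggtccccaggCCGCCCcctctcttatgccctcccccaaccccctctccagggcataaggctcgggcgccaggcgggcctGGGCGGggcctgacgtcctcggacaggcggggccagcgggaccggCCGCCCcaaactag
Lamb3: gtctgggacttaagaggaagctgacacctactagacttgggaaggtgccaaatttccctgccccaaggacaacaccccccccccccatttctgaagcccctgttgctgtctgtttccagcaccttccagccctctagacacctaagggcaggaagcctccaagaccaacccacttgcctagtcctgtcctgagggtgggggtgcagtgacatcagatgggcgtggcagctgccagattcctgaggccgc
Lama5 holds 4 GC boxes in 250 bases with a GC content of 72.4%, and Lamb3 holds 0 in 249 bases with 58.6%. Neither stretch holds the CCAAT box on either strand, found in 37.4% of all windows. Neither holds the TATA box, searched as TATAAA and found in 13.6% of all windows. The AP-1 letters, TGANTCA, found in 7.81% of all windows, were absent from both as well.

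Type VI collagen forms beaded filaments from different alpha chains, and Col6a6 is an alternative to Col6a3 in them. Col6a6 was the tallest member, with about 5882 to 8797 reads per library. Null mice 1 and 2 lay above all wild-type mice and null mouse 3 below wild type mouse 1. The log2 difference was 0.26 (SE 0.11, limma adjusted p = 0.53), and it was 0.04 with acinar markers as a covariate (limma adjusted p = 0.985). Because that covariate partly follows genotype, the smaller value is no clean correction. The level depends on the transcript: the table also lists a shorter Col6a6 transcript of 3.95 kb, at 7.36, 4.95 and 5.79 RPKM in wild type and 7.63, 7.97 and 7.08 RPKM in null islets. By that transcript Col6a6 lies below Col4a1.

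The chains that pair with Col6a6 were far lower. Col6a1 was at 0.948, 0.493 and 0.875 RPKM in wild type and 0.642, 0.809 and 0.885 RPKM in null islets. Col6a2 was at 0.757, 0.469 and 0.743 RPKM against 0.497, 0.727 and 0.659 RPKM. Both dipped in wild type mouse 2 and null mouse 1. Col6a3, their usual partner, averaged 0.854 RPKM and was highest in wild type mouse 2, at 1.02 RPKM. Col6a5 averaged 0.246 RPKM. Col6a4 was lower in null islets without overlap, at 0.0789, 0.0642 and 0.0610 against 0.0337, 0.0559 and 0.0433 RPKM, which is about 13 to 25 reads.

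Fibrillar collagens, the ropes of the interstitial matrix, were low in islets, with 4 of 11 tested. Col27a1, a minor fibrillar collagen best known from cartilage, was the highest, at 2.41, 1.94 and 2.27 RPKM in wild type and 2.25, 3.07 and 3.49 RPKM in null islets. Null mice 2 and 3 lay above all wild-type mice and null mouse 1 among them. Its log2 difference of 0.29 (SE 0.13, limma adjusted p = 0.54) was the largest of the 17 with all mice in the fit. It was 0.18 without null replicate 3 and 0.33 without wild type replicate 1, and Col6a6 was then larger, at 0.33 and 0.36. Col3a1, a collagen of elastic tissues and vessels, was at 1.72, 0.851 and 1.63 RPKM against 1.09, 1.67 and 1.58 RPKM. Col1a2 was at 1.202, 0.799 and 1.15 RPKM against 0.678, 1.32 and 1.31 RPKM, and Col1a1 at 0.467, 0.249 and 0.283 RPKM against 0.198, 0.459 and 0.497 RPKM. Type I collagen contains more Col1a1 than Col1a2 chains, and per length Col1a1 averaged 0.359 RPKM and Col1a2 1.08 RPKM.

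Wild type mouse 2 and null mouse 1 had the lowest Col1a2 and Col3a1 of the 6 mice. Log2 differences were 0.03 for Col1a2 (95% interval -0.33 to 0.39) and 0.04 for Col3a1 (95% interval -0.36 to 0.44; limma adjusted p = 0.97 and 0.96). Both turned negative without wild type replicate 2, at -0.07 and -0.14. Markers of stellate cells, pericytes and fibroblasts summed to 26.6, 14.0 and 18.2 RPKM in wild type and 16.0, 19.2 and 16.7 RPKM in null islets, with 6 of 10 tested, 3 positive and 3 negative, 0 called and none at 0. Dcn, a small proteoglycan of fibroblasts, was at 5.83, 1.78 and 4.73 RPKM against 2.15, 2.16 and 2.15 RPKM. Its log2 difference of -0.60 (limma adjusted p = 0.58) was the lowest of the 6 tested markers. Rgs5, the highest marker of the list, had one of -0.07 and Acta2 one of 0.12. Col11a2 was at 1.08, 0.884 and 1.29 RPKM against 1.17, 1.09 and 1.11 RPKM. The 7 untested fibrillar chains averaged 0.0210 to 0.359 RPKM. Among them Col2a1, the collagen of cartilage, did not overlap, but it rested on about 1 to 12 reads per library.

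Multiplexins are basement membrane collagens that carry heparan or chondroitin sulphate. Col15a1, found around capillaries, was at 2.85, 2.18 and 2.83 RPKM in wild type and 2.88, 3.03 and 2.76 RPKM in null islets, with overlap (log2 difference 0.11, limma adjusted p = 0.77). Without wild type replicate 2, the lowest of the 6, the difference was 0.02. Col18a1, the source of endostatin, averaged 0.835 RPKM and was not tested. It did not overlap, with 1.004, 1.07 and 0.841 RPKM in wild type and 0.770, 0.687 and 0.646 RPKM in null islets, about 152 to 259 reads. Its second transcript, at 0.656, 0.621 and 0.496 against 0.487, 0.370 and 0.299 RPKM, showed the same order of groups. The 2 transcripts may share reads, so this is no separate support. Endothelial markers, 10 of 11 tested, summed to 110, 101 and 101 RPKM in wild type and 104, 98.5 and 113 RPKM in null islets, with 5 positive, 5 negative, 0 called and none at 0. Plvap, which encodes the diaphragm protein of fenestrated capillaries, was at 34.8, 33.7 and 31.2 RPKM against 34.2, 32.8 and 36.1 RPKM.

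Fibril-associated collagens sit on the surface of fibrils, and 2 of 9 were tested. Col20a1 was higher in null islets without overlap, at 1.44, 1.10 and 1.38 RPKM against 1.53, 1.48 and 1.65 RPKM, where 1.9% of all genes tested were higher without overlap. Its log2 difference was 0.15 (SE 0.09, limma adjusted p = 0.65), and it was 0.08 without wild type replicate 2. Col16a1 was at 1.23, 1.22 and 1.14 RPKM in wild type and 0.705, 1.18 and 1.35 RPKM in null islets, so its log2 difference of -0.09 rested on null mouse 1 and was 0.04 without that mouse. The other 7, Col9a2 highest among them, averaged 0.0326 to 0.645 RPKM. Of the transmembrane collagens, Col13a1 was tested, at 2.30, 2.70 and 2.25 RPKM against 2.30, 2.28 and 2.81 RPKM (log2 difference 0.02, limma adjusted p = 0.97). Col25a1, first known from brain, was lower without overlap, at 0.198, 0.225 and 0.266 RPKM against 0.177, 0.182 and 0.137 RPKM, about 43 to 86 reads. Col7a1, the anchoring fibril of epithelia, was higher without overlap, at 0.175, 0.0910 and 0.158 RPKM against 0.346, 0.253 and 0.226 RPKM, about 40 to 165 reads. The remaining genes of the list of network and other collagens, Col28a1, Col8a1, Col8a2 and Col10a1, averaged 0.0434 to 0.4996 RPKM with overlap.

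Other basement membrane genes did not pass the test either, with 0 of 10 tested called, 5 positive and 5 negative, and a median of 0.02. Of the linkers, Nid1 was at 2.26, 2.005 and 2.35 RPKM against 2.07, 2.25 and 2.27 RPKM, and Hspg2, which encodes perlecan, at 4.42, 3.70 and 3.67 RPKM against 4.499, 3.91 and 3.75 RPKM, both with overlap. Nid2, the other nidogen, was at 1.37, 1.32 and 1.43 RPKM against 1.61, 1.63 and 1.84 RPKM, with null islets above wild type without overlap (log2 difference 0.18, SE 0.08, limma adjusted p = 0.54). Fbln2, a fibulin that binds laminin and nidogen, was at 2.96, 2.66 and 2.15 RPKM against 1.84, 1.203 and 0.589 RPKM (log2 difference -0.73, SE 0.20, limma adjusted p = 0.49). Agrn, a heparan sulphate proteoglycan that binds laminin gamma 1 chains, was at 4.28, 4.45 and 3.28 RPKM against 3.65, 2.78 and 2.502 RPKM, and Fras1, of epithelial basement membranes, at 1.73, 1.19 and 1.35 RPKM against 1.64, 1.87 and 2.28 RPKM. Fn1, which encodes fibronectin, averaged 0.596 RPKM and did not overlap, at 1.06, 0.695 and 0.830 RPKM against 0.503, 0.205 and 0.276 RPKM.

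Genes that mature collagen were tested for 17 of 28 listed members, with 5 positive, 12 negative, 0 called and a median of -0.03. The lysyl oxidase Loxl2, which crosslinks type IV collagen, had a log2 difference of 0.14, the prolyl isomerase Ppib one of -0.20 and the propeptidase Adamts3 one of -0.13 (limma adjusted p from 0.64 to 0.70). P4hb, a subunit of prolyl hydroxylase and also an abundant folding enzyme of secretory cells, held 192 to 249 RPKM in wild type and 198 to 222 RPKM in null islets. Serpinh1, a chaperone dedicated to collagen, held 4.75 to 6.61 RPKM in wild type and 3.81 to 6.54 RPKM in null islets.

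Receptors for collagen and laminin had 0 of 11 tested genes called, 4 positive, 7 negative and a median of -0.15. Of the 11, 5 were lower in null islets without overlap, where 13.2% of all genes tested were. Bcam, a receptor for the Lama5 chain, was at 11.3, 11.2 and 9.56 RPKM against 9.11, 6.76 and 6.57 RPKM (log2 difference -0.47, SE 0.12, limma adjusted p = 0.49). Itgb1, the shared beta chain of laminin and collagen integrins, was at 32.3, 33.9 and 32.7 RPKM against 28.3, 28.4 and 29.0 RPKM (log2 difference -0.20, SE 0.06, limma adjusted p = 0.49). Its integrin partner Itga3 was at 6.09, 6.28 and 5.94 RPKM against 5.77, 5.25 and 5.14 RPKM, and Itga6 overlapped, at 3.95, 3.77 and 3.69 RPKM against 3.72, 4.10 and 3.98 RPKM. Sdc1, a syndecan of epithelia, had a log2 difference of -0.52 (limma adjusted p = 0.49). Itgb4, the hemidesmosome integrin that binds the Lama3 laminin, averaged 0.715 RPKM and was not tested, at 1.03, 0.969 and 0.643 RPKM against 0.895, 0.433 and 0.315 RPKM. In Itgb4 as in Lamb3, null mouse 1 lay within the wild-type range and null mice 2 and 3 lay below it.

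**Figure D5:**
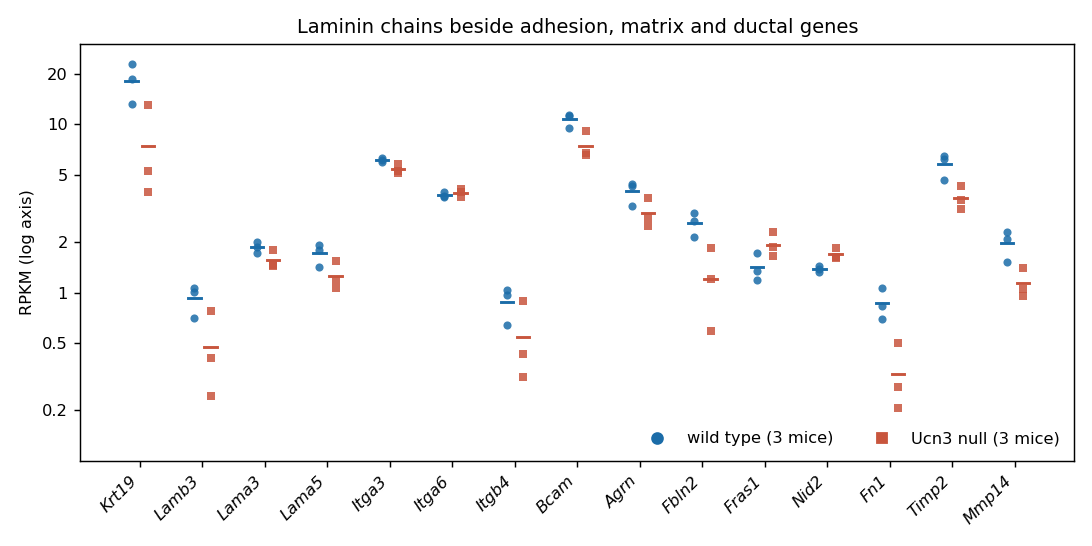
RPKM on a log axis of 3 laminin chains beside ductal Krt19, receptors (Itga3, Itga6, Itgb4, Bcam), other matrix genes (Agrn, Fbln2, Fras1, Nid2, Fn1), Timp2 and Mmp14, with circles for wild-type and squares for Ucn3 null mice and bars for group means. The genes shown were picked after their values were seen, so how many lie lower is no result, and the null means of Itga6, Fras1 and Nid2 lie above those of wild type.

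Of the proteases and inhibitors that turn matrix over, 5 of 11 were tested, 3 negative and 2 positive, 0 called, with a median of -0.33. Timp2, an inhibitor of metalloproteinases, was at 6.45, 6.26 and 4.67 RPKM against 4.31, 3.57 and 3.12 RPKM (log2 difference -0.54, SE 0.13, limma adjusted p = 0.49). Mmp14, the membrane protease that cleaves collagen, was at 2.10, 2.28 and 1.52 RPKM against 1.41, 1.05 and 0.951 RPKM, and Mmp15 had a log2 difference of -0.33. Over all genes tested, limma counted 185 higher and 999 lower at an unadjusted p under 0.05, so low values in null islets were common beyond matrix genes.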

How the data were processed

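The deposited table holds RPKM made by the authors for 28129 RefSeq transcript rows. Per the submitters' processing notes, STAR, bedtools and DESeq were used with build mm9; their roles and the handling of reads shared between transcripts are not given in the sources used here. Rows without numbers in every library were left out (117 empty, 1 with text). Genes averaging at least 1 RPKM were tested with limma 3.58.1 in R 4.3.3 on log2(RPKM + 1), genotype as the only term, eBayes with a mean trend and Benjamini-Hochberg adjustment over 12652 genes. This scale understates changes of low genes. Reads per gene are estimates from the steps of low values and GENCODE M21 lengths; 77.8% to 79.2% of low values fell within 0.1 of a whole read. The fit was also run on simulated data with independent normal noise, and the outcome is not given here. Only genes at higher levels than most tested members were given changes there. The simulation thus does not cover most members.

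The members and lists were chosen with earlier results of these data known. Of the genes that match the rule, 1 is not reported here and is left out of every count, median and figure of members. Values per mouse are given for the 3 highest tested members of each role and the 5 smallest p in each direction. Members without overlap have them too, except Col2a1. Matrix lists give up to 3 genes by p and cell type lists markers among the 3 with the highest mean. Krt19, Sst, Nid2, Lamb3, Col1a1, Col1a2, Col4a3, Col4a5, Col6a1, Col6a2, Nid1, Hspg2, Fn1, P4hb, Serpinh1, Itga3, Itga6 and Itgb4 were added after their values were seen. Alternatives changed pseudocount, filter, scaling, variance model, covariate, transcript or libraries. Figures used matplotlib 3.10.9.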

Additional observations from a re-analysis of the deposited data

How the results depend on the processing

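The count of collagens and laminins called was 0 under all 13 alternatives. No paired analysis was possible because the labels tie no null mouse to a wild-type mouse. The number of all genes called, 2, became 4 without a filter and 1 with the acinar covariate, and ran from 1 (without null replicate 2) to 5 (without null replicate 1) with 1 mouse left out. The median difference of the tested members, 0.027, was -0.060 with the acinar covariate and ran from -0.057 (without wild type replicate 2) to 0.076 with 1 mouse left out. Small differences changed sign with the acinar covariate for Col11a2 (-0.065), Col15a1 (-0.060), Col16a1 (0.056), Col3a1 (-0.167), Col4a1 (-0.002), Loxl2 (-0.001) and Ppib (0.077). That covariate partly follows genotype, so its fit does not cleanly separate acinar RNA from genotype. Scaling reversed Lama4 (0.019 by median ratio, 0.012 by upper quartile) and Lamc1 (0.004 by median ratio). With 1 mouse left out, Col13a1 ran from -0.053 to 0.076, Lama4 from -0.057 to 0.076, Lamc1 from -0.097 to 0.034, Col11a2 from -0.038 to 0.103, Col1a2 from -0.065 to 0.182, Col3a1 from -0.136 to 0.150 and Col16a1 from -0.189 to 0.043. The log2 ratios changed sign too: Col4a1 to Col4a2 ran from -0.042 to 0.029 and Lama4 to Lamc1 from -0.025 to 0.093. The cause of these changes was not tested. Genes with under 50 reads in a library, such as Col2a1 and Col17a1, carry wide counting error.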
